A study of Mus musculus with 4 samples.

Results

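Aminoacyl-tRNA synthetases are the enzymes that join each amino acid to its transfer RNA, and 28 of their genes and scaffold genes were followed here from intestinal stem cells to enterocytes. The genes were taken by name, from a list of 38 made of 20 cytosolic synthetases, 16 mitochondrial ones and 2 scaffold proteins. Of these 38, 28 had a probe set assigned to that gene alone (18 cytosolic, 8 mitochondrial and both scaffolds), among 12393 genes measured in all. The other 10 (Dars, Mars, Aars2, Cars2, Lars2, Mars2, Nars2, Vars2, Wars2 and Yars2) were not analysed here.

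Expression was measured on 4 Affymetrix mouse arrays. Wild-type C57BL/6 mice gave the Lgr5(hi) stem cells, the renewing cells of the crypt bottom, which were isolated by flow cytometry (2 arrays, called stem arrays). Differentiated villus cells of C57BL/6 mice with an intestinal epithelial conditional knockout of Atoh1, the factor that secretory cells need, were taken off with EDTA and are called enterocytes by the submitters (2 arrays). All came from the proximal intestinal epithelium of mice 4 to 6 weeks old, and the labels give tamoxifen at 1 mg per day over 5 days, then a wait of 5 days, for every sample, the wild-type ones included. The driver of the recombination and the reporter behind the sort are not given in the sources used here, nor are the animals behind each array, so p-values measure the spread between these samples. Cell type, genotype and isolation changed together and cannot be told apart.

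Each synthetase recognises its own amino acid, spends ATP to activate it, and transfers it to the matching transfer RNA, so every round of protein synthesis depends on the set. Most cytosolic and mitochondrial enzymes come from separate nuclear genes, the mitochondrial ones marked by a final 2 in the symbol, while Gars and Kars serve both compartments. In the cytosol some synthetases sit in a multisynthetase complex held together by the scaffold proteins Aimp1 and Aimp2. Crypt cells divide and grow, whereas villus enterocytes have left the cell cycle and turn to absorption.

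Synthetase mRNAs were lower in the enterocyte arrays. Of the 28 genes, 24 fell, none rose (0 of 28) and 4 missed the threshold (limma, Benjamini-Hochberg adjusted p below 0.05 over all 12393 genes), where 22.4% of all genes fell, 18.2% rose and 40.6% did either. Among genes at or above the background level, which all 28 were in their mean, 33.4% fell. At an unadjusted p below 0.05, 25 were lower and 0 higher, but no count over all genes was made at that level to set beside them. The median log2 difference of the 28 was -0.92 (enterocyte minus stem), a 1.89-fold fall, beside -0.0026 over all genes, and 13 fell by at least 2-fold, as 13.6% of all genes did. In 26 of the 28 both enterocyte arrays lay below both stem arrays, which was so for 34.8% of all genes. On whole-cell RNA, fewer cells of a type and less RNA per cell cannot be told apart.

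**Figure D1:**
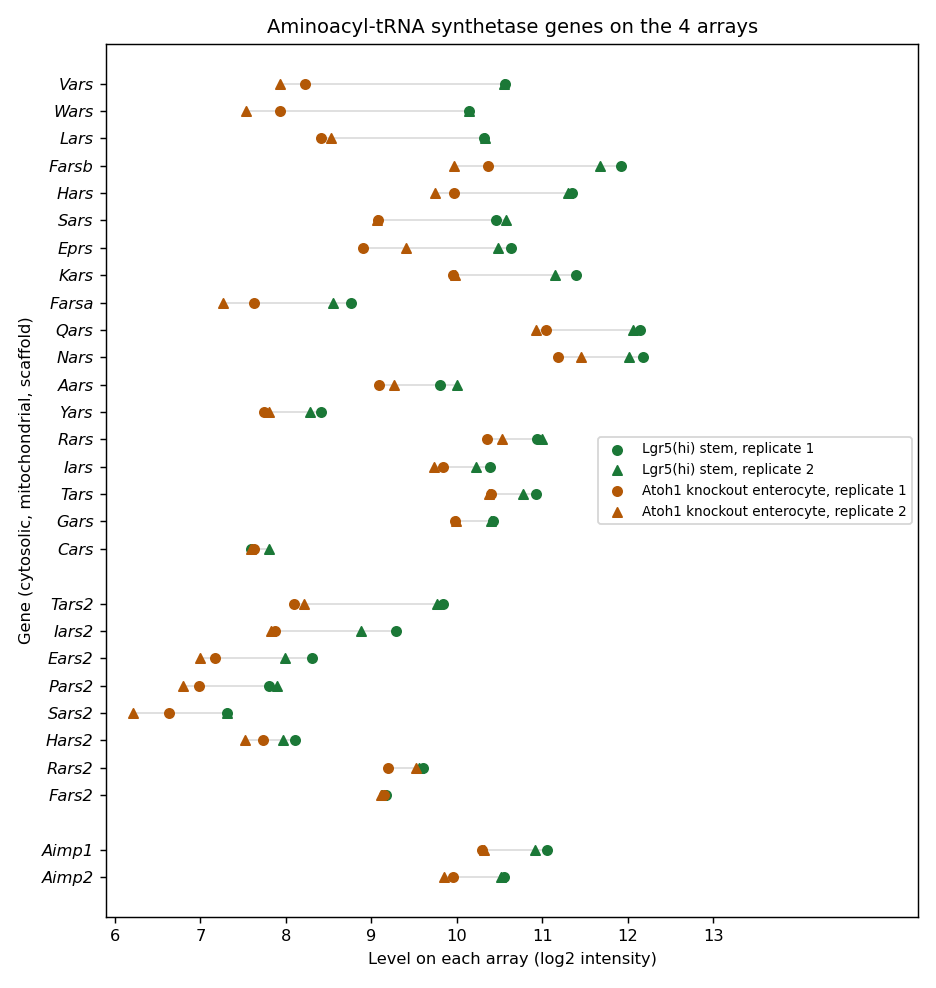
Level of each measured gene on each array (log2 intensity, horizontal axis), with cytosolic synthetases at the top, mitochondrial ones in the middle and scaffold genes at the bottom; green points are stem arrays, orange points enterocyte arrays, and circles and triangles replicates 1 and 2. Positions of different genes are not comparable, and in 26 of 28 genes both orange points lie left of both green points.

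The calls rested on having 2 arrays in each group. Without stem replicate 1 or without stem replicate 2 no member passed by limma any more, and neither did any other of the 12393 genes as lower. Without enterocyte replicate 1, 7 members fell (8.54% of all genes), and without enterocyte replicate 2, 6 fell (6.88%). The differences stayed negative in 27, 27, 28 and 28 of the 28 genes in these 4 fits. On all 4 arrays 6259 of all 12393 genes had a negative difference. Scaling to reference genes lowered members and other genes alike: with each array centred on reference genes all 28 fell, but so did 73.3% of all genes, and with arrays shifted by reference gene deviations all 28 fell beside 65.4%. With dim genes left out 25 fell, beside 36.9%.

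Technical and cellular values moved with the groups as well. Control probe sets for both ends of the Gapdh and actin mRNAs differed by 1.70 and 1.92 (Gapdh) and 2.06 and 2.10 (actin) log2 units, 3' over 5', in the stem arrays, and by 0.15 and 0.17, and 0.56 and 0.50, in the enterocyte arrays. Those for added transcripts differed too, and for ThrX the direction depended on the part of the transcript. The 3' set of BioB read log2 7.94 and 8.14 (stem) against 5.95 and 5.70 (enterocyte). The 3' sets of BioC (10.82 and 11.01 against 10.22 and 10.07) and BioDn (12.74 and 12.88 against 12.22 and 12.12) were also lower. That of CreX was close (14.30 and 14.30 against 14.29 and 14.24). The 3' set of DapX was lower (12.17 and 12.56 against 11.70 and 11.43), and those of LysX and PheX overlapped between the groups. For ThrX the 3' set was slightly lower (9.46 and 9.90 against 9.44 and 9.20). Its middle set was higher (7.69 and 7.87 against 8.56 and 8.23). All 8 measured stem cell markers and all 5 proliferation markers fell, and all 10 enterocyte markers rose. Goblet markers (6 of 6 fell; summed intensity 22805 to 24795 in stem and 495 to 674 in enterocyte arrays), Paneth markers (2 of 4 fell; 34448 to 47214 and 663 to 6070) and enteroendocrine markers (6 of 8 fell; 6894 to 8832 and 679 to 801) were brighter in the stem arrays. Lymphocyte markers (10 of 12 rose; 680 to 941 in stem and 8720 to 11743 in enterocyte arrays) and tuft cell markers (4 of 5 rose; 433 to 617 and 2537 to 3831) were brighter in the enterocyte arrays. Below the background level in their mean were 5 of 6 fibroblast, 4 of 4 endothelial, 3 of 4 smooth muscle and 2 of 2 erythroid markers. The part of these values in the synthetase differences was not tested. The targeted gene Atoh1 had log2 levels of 7.43 and 7.71 (stem) and 5.06 and 5.28 (enterocyte), at least 2.35-fold lower, and the sort gene Lgr5 read 11.33 and 10.96, and 6.92 and 6.09, both directions being set by the design.

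Among the cytosolic synthetases 17 of 18 fell, 0 rose and 1 did not pass, with a median of -1.16 and 10 falls of at least 2-fold. Of all genes 22.4% fell (33.4% of those at or above background), and 13.6% fell by at least 2-fold. The largest falls were those of valine and tryptophan. Vars, the valine enzyme, read log2 10.56 and 10.55 in the stem arrays against 8.22 and 7.93 in the enterocyte arrays, 5.58-fold lower (a log2 change of -2.48 with an SE of 0.13, n = 2 per group, limma adjusted p = 0.00349). Wars, the tryptophan enzyme, read 10.14 and 10.15 against 7.93 and 7.53, 5.32-fold lower (-2.41 ± 0.17 SE, adjusted p = 0.00494). In both genes the stem arrays were nearly identical and the enterocyte arrays lay more than 2 log2 units below them. Only 1.82% of all genes had a difference below that of Vars, and 2.02% below that of Wars.

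Lars, the leucine enzyme, which also senses leucine for the growth kinase mTORC1, read 10.32 and 10.33 in the stem arrays against 8.41 and 8.53 in the enterocyte arrays (3.63-fold lower, -1.86 ± 0.07 SE, adjusted p = 0.00277). Farsb, the β subunit of the phenylalanine enzyme, read 11.92 and 11.67 against 10.37 and 9.97 (3.09-fold lower, -1.63 ± 0.19 SE, adjusted p = 0.0115). Its partner Farsa, the catalytic α subunit, read 8.76 and 8.55 against 7.62 and 7.27 (-1.21 ± 0.17 SE, adjusted p = 0.0167). The enzyme works as a tetramer of both kinds of subunit, and the mRNAs of both were lower in every enterocyte array than in either stem array. Hars, the histidine enzyme, read 11.35 and 11.30 against 9.96 and 9.75 (2.77-fold lower, -1.47 ± 0.10 SE, adjusted p = 0.00494). Sars, the serine enzyme, read 10.46 and 10.58 against 9.08 and 9.07 (2.73-fold lower, -1.45 ± 0.07 SE, adjusted p = 0.00332). For Hars and Sars the groups were more than 1 log2 unit apart.

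**Figure D2:**
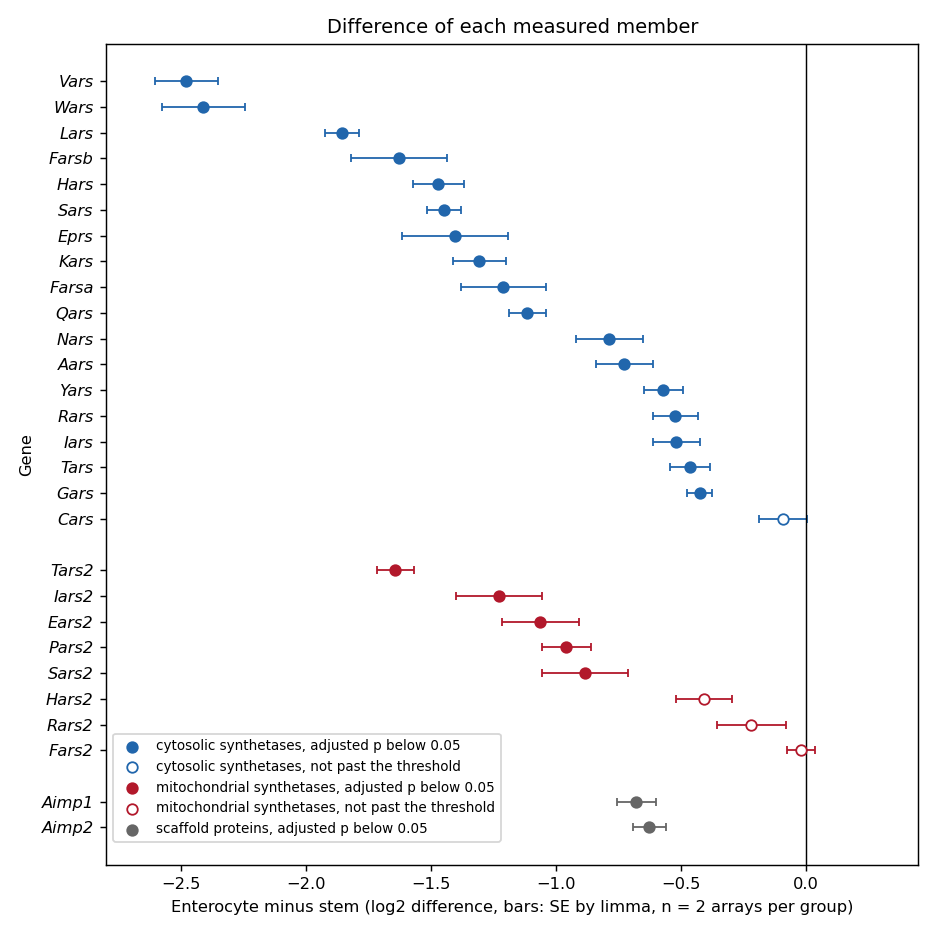
Enterocyte minus stem difference of each of the 28 genes (log2, horizontal axis) with limma's standard error as bars; filled points passed the threshold, open points did not. Differences run from -2.48 for Vars to -0.019 for Fars2, and no point lies above 0.

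Synthetases fell both inside and outside the multisynthetase complex. On the probe sets used, 6 of the 6 measured complex synthetases fell (median -1.21), as did 11 of the 12 outside it (median -0.999). Of all genes 22.4% fell. The difference between the 2 medians was not tested. Eprs, a fused enzyme for glutamate and proline, read 10.63 and 10.48 in the stem arrays against 8.90 and 9.40 in the enterocyte arrays (-1.40 ± 0.21 SE, adjusted p = 0.0188). Kars, the lysine enzyme, read 11.39 and 11.15 against 9.96 and 9.97 (-1.31 ± 0.11 SE, adjusted p = 0.00623). Both were clear of overlap, and Qars, the glutamine enzyme of the complex, fell by 1.11 on the log2 scale, though on 2 of its 3 other probe sets the groups overlapped. The remaining complex enzymes Rars (arginine) and Iars (isoleucine) had smaller falls, -0.52 each. Iars was higher on its other probe set (0.59), so its direction is not settled.

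Both scaffold genes fell. Aimp1, which also gives rise to a secreted cytokine, read 11.06 and 10.91 in the stem arrays against 10.30 and 10.32 in the enterocyte arrays (-0.68 ± 0.08 SE, adjusted p = 0.0109). Aimp2 read 10.55 and 10.51 against 9.95 and 9.86 (-0.63 ± 0.07 SE, adjusted p = 0.00925). The third scaffold of the complex, Eef1e1, is no member of the list and was -0.40 ± 0.17 SE, not past the threshold (adjusted p = 0.169).

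The smaller cytosolic falls lay between -0.79 and -0.43. They were those of Nars (asparagine, -0.79), Aars (alanine, -0.73), Yars (tyrosine, -0.57), Tars (threonine, -0.46) and Gars, beside Rars and Iars. Nars and Iars were higher on their other probe sets (0.24 and 0.59). Gars, the glycine enzyme of both compartments, read 10.42 and 10.40 against 9.98 and 9.99, a small fall with little spread (1.34-fold lower, -0.43 ± 0.05 SE, adjusted p = 0.0119). Cars, the cysteine enzyme, was the cytosolic gene that did not pass: it read 7.59 and 7.80 in the stem arrays against 7.62 and 7.59 in the enterocyte arrays (-0.09 ± 0.10 SE, adjusted p = 0.513), with the groups overlapping.

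Mitochondrial synthetases charge transfer RNAs for the few proteins made inside the organelle. Of 8 measured genes 5 fell, 0 rose and 3 did not pass, with a median of -0.92. Of all genes 22.4% fell, and 33.4% of those at or above background. Tars2, the threonine enzyme, read 9.83 and 9.76 in the stem arrays against 8.10 and 8.22 in the enterocyte arrays (3.12-fold lower, -1.64 ± 0.07 SE, adjusted p = 0.00324). Iars2, for isoleucine, read 9.29 and 8.87 against 7.87 and 7.83 (2.34-fold lower, -1.23 ± 0.17 SE, adjusted p = 0.0162). Ears2, which charges both the glutamate and the glutamine transfer RNA of mitochondria, read 8.31 and 7.99 against 7.18 and 6.99 (-1.06 ± 0.15 SE, adjusted p = 0.0174). None of these genes had overlapping groups. Pars2, for proline, read 7.80 and 7.89 against 6.99 and 6.80 (-0.96 ± 0.10 SE, adjusted p = 0.00873). Sars2, for serine, was 7.31 in both stem arrays, whose values were identical, against 6.63 and 6.22 (-0.88 ± 0.17 SE, adjusted p = 0.0332), the last value lying below the background level of 6.34. Hars2 (-0.41 ± 0.11 SE, adjusted p = 0.0702), Rars2 (-0.22 ± 0.14 SE, adjusted p = 0.321) and Fars2 (-0.019 ± 0.055 SE, adjusted p = 0.816) did not pass. Fars2, for phenylalanine, read 9.17 and 9.13 against 9.15 and 9.11, with the groups overlapping. Cars and Fars2 turned to 0.14 and 0.020 after quantile normalization, without passing, and all 4 genes that did not pass fell under both scalings to reference genes.

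For the amino acids whose cytosolic and mitochondrial enzymes were both measured, the differences on the probe sets used were all below 0. No amino acid had members past the threshold in opposite directions. The log2 change of the cytosolic gene was set against that of the mitochondrial gene in 9 pairs. In 5 of them the cytosolic gene fell more, without overlap between the groups of arrays: Farsa (log2 change -1.21) and Farsb (-1.63) against Fars2, Hars against Hars2, Rars against Rars2, and Sars against Sars2. For histidine the changes were -1.47 and -0.41, and Hars and Hars2 are neighbouring genes. This order depends on the probe set: on their other probe sets Hars was -0.14 and Hars2 -0.84, and Sars was -0.76 on its other one, beside -0.88 for Sars2. For phenylalanine the size of the gap depends on it: Fars2 was -0.49 on its other probe set, and Farsb -0.53 on its dimmest one. In 2 pairs the mitochondrial gene fell more, threonine (Tars -0.46, Tars2 -1.64) and isoleucine (Iars -0.52, Iars2 -1.23). Eprs overlapped in its change with Ears2 and with Pars2. The pairs are not separate, since Fars2 and Eprs each stand in more than 1. No share of such pairs over all genes was counted to set beside them. With 2 arrays per group an exact permutation test of such a contrast cannot go below p = 0.333, so these are descriptions. By catalytic fold, 9 of 11 class I and 12 of 14 class II enzymes fell, beside 22.4% of all genes. The class medians were -1.06 and -0.92, with the fused Eprs in neither count.

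Other probe sets of the same genes differed in size and in a few cases in direction. The 28 genes had 51 probe sets, and 15 genes had more than 1; the value used above is that of the probe set with the highest mean. Of the 23 others, 17 were lower in both enterocyte arrays than in both stem arrays, 4 overlapped and 2 were higher. In 17 of the 23 the fall was smaller than on the probe set used, or absent, and in 6 it was larger. Iars read 8.90 and 8.35 in the stem arrays against 9.37 and 9.05 in the enterocyte arrays on its other probe set (0.59), opposite to the -0.52 given above, so the probe sets disagree on its direction. Nars likewise had 0.24 on its other probe set, and Hars -0.14. Eprs was lower on all 3 of its probe sets (-1.40, -2.66 and -2.04), Wars on all 4 (-2.41, -2.02, -1.35 and -0.46) and Tars2 on both (-1.64 and -2.14). Fars2, without a difference on the probe set used, had -0.49 on the other. Qars, at -1.11 on the probe set used, had -0.43, 0.04 and -0.14 on its 3 others, the last 2 with overlapping groups. With the mean over probe sets Aars (adjusted p = 0.0590), Nars (0.179) and Iars (0.896) no longer passed by limma. On the dimmest probe sets Aars (0.413), Hars (0.288), Qars (0.464), Ears2 (listed at the same value on all 4 arrays), Nars (0.242) and Iars (0.220) did not pass, and Hars2 did on both settings (0.0179 and 0.0158).

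**Figure D3:**
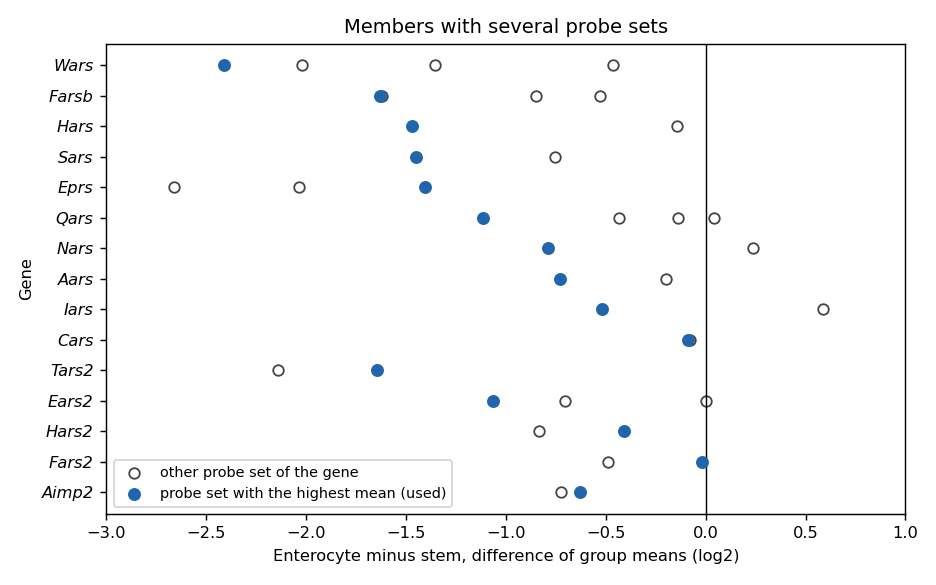
Enterocyte minus stem difference of group means (log2, horizontal axis) for each probe set of the 15 genes with several; filled points are the probe sets used, open points the others. Open points of Iars (0.59) and Nars (0.24) lie above 0 while their filled points lie below it.

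Genes that work beside the synthetases were counted from lists chosen for known function, and their counts stand beside 22.4% of all genes that fell and 18.2% that rose (73.3% and 65.4% falling under the 2 scalings to reference genes). Leaving out 1 array took their counts of falls to 0 to 6 for transfer RNA processing, 0 to 2 for related genes, 0 to 2 for elongation and release, 0 for mitochondrial factors and 0 to 5 for the amino acid response, with 0 falls in each list without stem replicate 1 or without stem replicate 2. Of 33 measured genes of transfer RNA processing and modification, 21 fell, 2 rose and 10 did not pass, at a median of -1.04. Trmt1, a methyltransferase of transfer RNA, read 11.63 in both stem arrays against 8.66 and 8.25 (9.04-fold lower, -3.18 ± 0.17 SE, adjusted p = 0.00368). Mettl1, which adds 7-methylguanosine to transfer RNA, was at least 4.60-fold lower (8.44 and 8.65 against 6.10 and 5.76), and the pseudouridine synthase gene Pus7 was 5.94-fold lower (-2.57 ± 0.13 SE). Elac1, an endonuclease acting at transfer RNA ends, rose (6.01 and 6.05 in stem, below background, against 6.71 and 6.79 in enterocyte arrays, at least 1.33-fold higher). The size of the Trmt1 fall rests on the probe set: on its dimmest one it was -0.23 and did not pass (adjusted p = 0.0604), and the 2 stem values used above are identical. With each array scaled to reference genes, in either of 2 ways, 31 of these 33 fell and 0 rose. On the dimmest probe sets 13 fell and 1 rose, beside 15.7% of all genes that fell. Elac1 did not pass under either scaling or on its dimmest probe set.

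Of 10 further synthetase-related genes measured, 3 fell, 0 rose and 7 did not pass, at a median of -0.42, a share of falls near that of all genes. Under either scaling to reference genes 10 fell, where most other genes fell too. Dtd1, which removes D-amino acids from mischarged transfer RNA, fell 2.20-fold (-1.14 ± 0.13 SE, adjusted p = 0.0103). Gatc and Gatb, subunits of the mitochondrial enzyme that turns glutamate into glutamine on its transfer RNA, were -0.48 ± 0.09 SE and -0.30 ± 0.06 SE (adjusted p = 0.0266 and 0.0396). After quantile normalization neither passed (-0.26 and -0.07, adjusted p = 0.167 and 0.582). Qrsl1, another subunit of the same enzyme, was -0.86 ± 0.25 SE and did not pass in the main fit (limma adjusted p = 0.0823). Ears2, whose product feeds that step, had fallen by 1.06 as given above.

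Cytosolic and mitochondrial translation factors were mixed. In the cytosolic elongation and release list 4 of 8 fell, 1 rose and 3 did not pass, at a median of -0.57. Eef1d, an exchange factor of elongation, read 12.94 and 13.01 against 11.09 and 11.11 (3.68-fold lower, -1.88 ± 0.06 SE, adjusted p = 0.00261). Abce1, which recycles ribosomes, fell 3.20-fold and Eif5a, which helps ribosomes past difficult sequences, 1.82-fold. On the dimmest probe sets Eif5a was -0.27 (adjusted p = 0.0889) and Abce1 -1.27 (adjusted p = 0.0615), neither past the threshold, and 2 of the 8 fell. Gspt1, a release factor, was higher at 0.37 ± 0.08 SE (adjusted p = 0.0473), a call lost under both scalings to reference genes, where 7 fell and 0 rose, and also under quantile normalization, a variance trend, and the mean or dimmest probe set. Of 5 measured mitochondrial translation factors 2 fell, 1 rose and 2 did not pass, at a median of 0.21. Mtif2, an initiation factor of mitochondria, was -1.21 ± 0.27 SE (adjusted p = 0.0463; 0.0645 on the dimmest probe sets) and Mrrf, a ribosome recycling factor, -0.86 ± 0.16 SE (adjusted p = 0.0307). Gfm1, an elongation factor, was higher at 0.29 ± 0.06 SE (adjusted p = 0.0377), which turned to -0.41 and -0.21 under the scalings, with 0 rises and 3 or 2 falls in the list. Gfm1 also did not pass with dim genes left out, with a variance trend or under any other choice of probe set.

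Genes of the amino acid response, a programme run by the transcription factor Atf4 that is known to include many synthetase genes, fell in 14 of 28 cases, rose in 4 and did not pass in 10, at a median of -0.68. Under scaling on the median level of reference genes 22 fell and 2 rose, and under scaling on reference gene deviations 21 fell and 3 rose. Nupr1, a stress-induced chromatin protein, was at least 9.06-fold lower (8.69 and 10.36 in the stem arrays against 4.47 and 5.00). Shmt2 and Mthfd2, of mitochondrial one-carbon metabolism, fell 9.66-fold (-3.27 ± 0.16 SE) and 6.30-fold (-2.66 ± 0.25 SE). Slc3a2, the heavy chain of amino acid exchangers, rose 3.74-fold (1.90 ± 0.12 SE, adjusted p = 0.0044). Atf4 itself and its classical target Asns, asparagine synthetase, named beyond the rule for these lists, fell by 0.78 (SE 0.08, adjusted p = 0.00824; on the dimmest probe sets -0.48, adjusted p = 0.224) and by 1.00 (both log2, SE 0.10, adjusted p = 0.00811). The other genes of this list that rose were Trib3 (1.61, limma adjusted p = 0.00600), Gpt2 (0.96, 0.00474) and Cth (0.65, 0.0396). Trib3 lay below background in the stem arrays, so it was at least 2.05-fold higher. Gpt2 lay below background in both stem arrays and in 1 enterocyte array (5.36 and 5.39 against 6.29 and 6.39). Of the 28 genes, 7 were below background in their mean. With dim genes left out, 13 of 21 fell and 3 rose, beside 36.9% of all genes that fell. The list thus went in both directions.

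**Figure D4:**
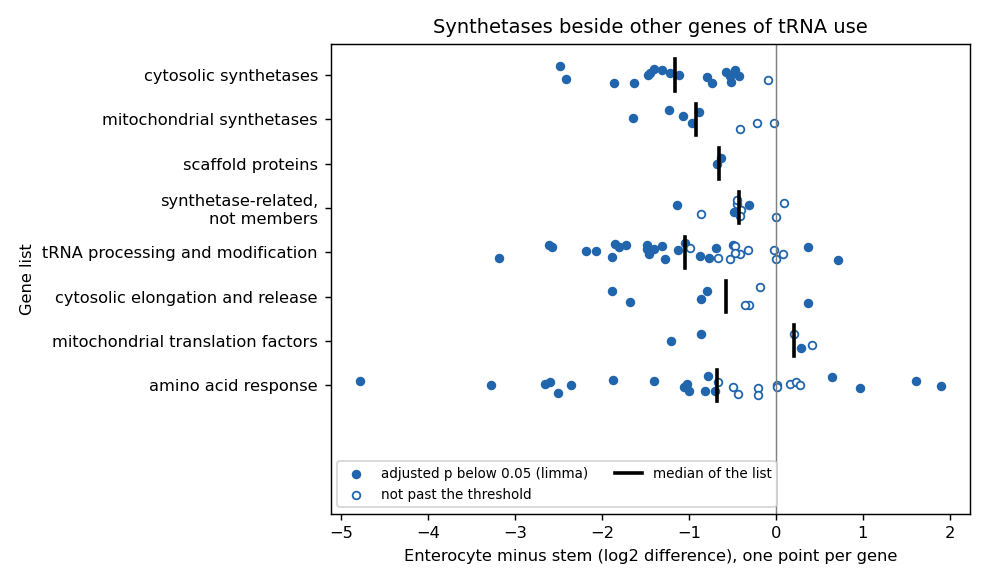
Enterocyte minus stem difference (log2, horizontal axis) of every measured gene in 3 lists of members and 5 lists of related genes; filled points passed the threshold by limma, open points did not, and bars mark list medians. List medians lie from -1.16 for cytosolic synthetases to 0.21 for mitochondrial translation factors.

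Atf4 binds a composite element whose core is written TGATGNAA, and the growth regulator Myc binds CACGTG, so the 250 bases upstream of the start sites were searched for both, on both strands (RefSeq promoters, GRCm38.p6). Promoters were matched for 19 of the 28 genes. TGATGNAA occurred in 3 of these 19 (15.8%), Aars, Gars and Tars, and in 3.45% of 32851 promoters of the same length. Those 3 genes had differences of -0.73, -0.43 and -0.46, and 10 of the 16 genes without the motif had larger falls than any of them. CACGTG occurred in Aars, Farsb and Iars (15.8%, against 6.02% of all promoters). For both motifs the members were counted by gene and the 32851 by promoter entry, without matching for expression. These shares are therefore not like for like, and their difference was not tested. The 3 promoters with TGATGNAA are shown because these are the members in which the Atf4 core was found, and that of Tars2 because it fell most among the mitochondrial genes and holds neither motif. Capitals mark matches to TGATGNAA (here read on the opposite strand) and, in Aars alone, also CACGTG.
Aars (chr8:111033592-111033841, plus strand): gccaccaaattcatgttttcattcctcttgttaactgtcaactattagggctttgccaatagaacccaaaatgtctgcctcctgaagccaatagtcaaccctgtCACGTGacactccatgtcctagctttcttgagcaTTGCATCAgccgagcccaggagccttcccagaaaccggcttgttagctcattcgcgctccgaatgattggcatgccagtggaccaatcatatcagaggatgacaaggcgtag
Gars (chr6:55037751-55038000, plus strand): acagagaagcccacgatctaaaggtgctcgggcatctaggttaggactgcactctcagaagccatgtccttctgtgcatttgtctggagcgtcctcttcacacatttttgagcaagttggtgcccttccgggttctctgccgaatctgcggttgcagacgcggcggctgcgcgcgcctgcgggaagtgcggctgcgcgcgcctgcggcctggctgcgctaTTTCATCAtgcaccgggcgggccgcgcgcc
Tars (chr15:11399659-11399908, minus strand): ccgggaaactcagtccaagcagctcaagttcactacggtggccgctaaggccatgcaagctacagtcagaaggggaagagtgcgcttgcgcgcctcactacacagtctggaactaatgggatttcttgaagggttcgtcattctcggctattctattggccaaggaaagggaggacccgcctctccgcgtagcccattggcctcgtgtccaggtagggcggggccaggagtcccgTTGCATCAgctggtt
Tars2 (chr3:95754978-95755227, minus strand): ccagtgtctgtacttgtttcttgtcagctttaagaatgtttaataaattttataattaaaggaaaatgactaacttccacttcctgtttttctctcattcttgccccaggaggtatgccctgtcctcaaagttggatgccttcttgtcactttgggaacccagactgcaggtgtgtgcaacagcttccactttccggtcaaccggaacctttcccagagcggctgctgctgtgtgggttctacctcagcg
Matched bases in the 3 promoters were TTGCATCA in Aars and Tars and TTTCATCA in Gars, ending 105, 8 and 23 bases upstream of the start. A match is a description of these windows and was not tested for binding.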

How the data were processed

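RNA of 4 samples was measured on 4 arrays, with 100 ng of total RNA labelled per the labels' protocols. The deposited values are intensities, 1 per probe set and array, and are linear rather than log2. RMA is named, without a version, per the submitters' processing notes; the sources used here do not say how arrays were brought to a common scale. Intensities ran from 7.93 to 41704, with array medians of 102.4 to 110.6. The log2 of each value was taken with no offset. Of 22690 probe sets 20380 had 1 gene symbol in the platform annotation, 691 had several, and control probe sets (64) were left out. A gene with several probe sets was represented by the brightest on average, which left 12393 genes. Groups were compared with lmFit and eBayes of limma 3.58.1 (R 4.3.3) in a two-sided test; p-values were adjusted by Benjamini-Hochberg across every gene and called below 0.05. The fit had 2 residual and 1.23 prior degrees of freedom, and 209 genes had identical replicates in both groups. The number of arrays limits the precision. The steps were run on simulated data with independent normal noise. That check did not cover identical replicates, or technical values that move with the groups.

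The background level, log2 6.34 (intensity 81.1), is the 90th percentile over 24 genes known from other organs, each averaged over the arrays. Where every array of a group lay below it, the fold is a bound ("at least"), the other group's mean over the background level. The synthetase members, the related lists and the rule for named genes were chosen with earlier results of these data known. By that rule the arrays' values are given for the 6 largest changes past the threshold in each of the 3 member lists. They are also given for Eprs, Kars, Gars, Aimp1 and Aimp2, and other members are given by their difference. Of each related list up to 3 changes in the main and 1 in the other direction are named. Some of these have the arrays' values and the rest only a difference or fold. Arrays of Farsa, Cars and Fars2, the second probe sets singled out, Atf4, Asns and the Tars2 promoter were added after their values were seen. So were Trib3, Gpt2, Cth, Qrsl1 and the control probe sets for added transcripts. Alternatives were the replicate block, leaving out each array, scaling to 8 reference genes in 2 ways, quantile normalization, a filter at the background level, other probe set rules, an offset of 16, a variance trend and array weights.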

Additional observations from a re-analysis of the deposited data

How the results depend on the processing

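No member passed the threshold as higher in any of the 15 alternatives (limma), and none had an unadjusted p below 0.05 as higher. The count of 24 falls lay between 19 and 28 in the alternatives that kept all 4 arrays. The 19 came on the dimmest probe sets (15.7% of all genes fell) and the 28 under the scalings (73.3% and 65.4%). It was 22 with the mean over probe sets (22.3%) and 22 without those ending in _x_at or _s_at (21.1%). Leaving out 1 array gave 0 to 7 falls among all members, 0 to 5 among cytosolic and 0 to 2 among mitochondrial synthetases, and medians of -1.07 to -0.89, -1.24 to -1.04 and -1.07 to -0.77. An arm with 1 array is assumed there to vary like the other group. Centring on reference genes put the median of all genes at -0.70, and shifting by their median deviation at -0.50; 4 of the 8 reference genes were themselves higher, and 0 lower, by limma. Medians of all members, cytosolic and mitochondrial genes were -1.62, -1.86 and -1.62 in the first and -1.42, -1.66 and -1.42 in the second, with 8 mitochondrial falls in each; relative to all genes the members' median stayed at -0.92. Quantile normalization gave -0.83 for all members and -0.72 for mitochondrial genes, and an offset of 16 gave -0.83 for all members. The mean over probe sets gave -0.68, -0.69 and -0.75, the dimmest probe sets -0.55, -0.49 and -0.86, and leaving out probe sets ending in _x_at or _s_at -0.77, -0.77 and -0.92, so under each of these 3 choices the mitochondrial median lay below the cytosolic one, the opposite of their order on the probe sets used. The choice of probe set turned Iars to 0.035 with the mean over its probe sets and to 0.59 with its dimmest one or without such probe sets, and Nars to 0.24 with its dimmest one; the cause was not tested. Under the scalings, Gspt1 became -0.33 and -0.12, and Gfm1 -0.41 and -0.21, since each array is moved there by a constant that lowers every gene alike. With the replicate number as a block, 22 members fell, beside 20.6% of all genes. Nars and Tars no longer passed there (adjusted p = 0.0604 and 0.0519 by limma). Of the related genes Gatb (0.0997), Gatc (0.0592), Mtif2 (0.0824), Gfm1 (0.105) and Gspt1 (0.0801) lost their calls. The sources used here do not say whether replicates of the same number belong together. The correlation of their deviations over genes was 0.050, which cannot settle it with 2 arrays per group. Signal over background limits Sars2 in particular, whose enterocyte arrays lay at or near the background level.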
